A study of Oryza sativa Indica Group with 6 samples.

Results

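The 5 genes described here belong to the ALOG family, named after *LSH1* of Arabidopsis and *G1* of rice: *G1* (LOC_Os07g04670, chromosome 7), *TAWAWA1* (*TAW1*, LOC_Os10g33780, chromosome 10), *TRIANGULAR HULL1* (*TH1*, LOC_Os02g56610, chromosome 2), *G1L1* (LOC_Os02g07030, chromosome 2), and *G1L2* (LOC_Os06g46030, chromosome 6). They were chosen by locus ID for their family and not by their measured values, although earlier results of these data were known. They are 5 of the 55982 locus IDs kept in the data. RNA-seq was carried out on young panicles of 0 to 4 cm from the wild rice introgression line YIL100, which served as the wild type, and from the nonshattering mutant *ssh1* (SSH1-/-), with 3 biological replicates of 5 plants per genotype. YIL100 carries *Oryza rufipogon* segments in an *indica* (Teqing) background, and *ssh1* came from EMS mutagenesis of YIL100, so that both genotypes share this background. The mutated gene in *ssh1* is *SUPERNUMERARY BRACT* (*SNB*, LOC_Os07g13170), which encodes an APETALA2-like transcription factor and carries a point mutation in an intron, and since *ssh1* is 1 mutant line, effects of other EMS changes and of that in *SNB* cannot be told apart here.

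ALOG proteins are plant-specific, nuclear proteins with a single conserved DNA binding domain, and in grasses they are known for setting the pace and identity of panicle meristems and spikelet organs. *G1* specifies the sterile lemma, the small bract at the base of the rice spikelet, which takes on the features of a lemma when *G1* is lost. *TAW1* keeps panicle meristems in the branching phase and delays their turn into spikelets, *TH1* shapes the lemma and palea that form the hull, and *G1L1* and *G1L2* have been linked to panicle branching.

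The values are FPKM, read fragments scaled to the exon length of the gene and to the size of the library, so that levels of different genes can be set side by side within a library. The number of reads per library was not analysed here, so the counting error of a single value is unknown and no detection limit is given. From the spacing of low values, the relative depth of the libraries spanned -0.24 (*ssh1* replicate 1) to 0.07 (*ssh1* replicate 3) on the log2 scale against replicate 1 of the wild type. *SNB* itself had 16.9 to 20.9 FPKM in the wild type and 7.44 to 8.86 FPKM in *ssh1*. Replicate 2 of *ssh1* stood apart, with 44 genes listed at 0 that had at least 1 FPKM in all 5 other libraries, against 2 to 7 such genes for each other library. All 5 ALOG genes averaged 1 FPKM or more over the 6 libraries and were tested with limma on log2(FPKM + 1) among the 18537 genes that did so. A gene is said to have risen or fallen where its Benjamini-Hochberg adjusted p was below 0.05, and the thresholds of the study for differentially expressed genes (DEGs; fold change of at least 2 and adjusted p below 0.001) are given beside it.

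*TAW1*, *TH1*, and *G1L1* fell in *ssh1*, whereas *G1* and *G1L2* did not pass the test. In the same fit, 28% of the 18537 tested genes fell and 17% rose, so that 3 falls among 5 genes is read against a background in which 45% of the genes moved. With median-of-ratios scaling, which centres the libraries on a typical gene, the falls and rises over all genes were 3568 and 4015, against 5192 and 3149 on the FPKM as deposited, and the same 3 ALOG genes fell. Of the 5 genes, 0 passed the DEG thresholds in limma, against 5.11% of the tested genes (1.92% lower and 3.19% higher in *ssh1*). The study called its DEGs with Cuffdiff and not with limma. This count therefore does not tell which of the 5 genes the study called. The 3 genes that fell were lower in every *ssh1* replicate than in any wild-type replicate, and 0 of the 5 were higher in this way. Of all tested genes, 38% did not overlap with *ssh1* lower and 21.7% with *ssh1* higher, 59.7% in either direction. The median log2 fold change was -0.88 over the 5 genes and -0.14 over all tested genes. After the scaling, these medians were -0.76 and -0.01.

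**Figure D1:**
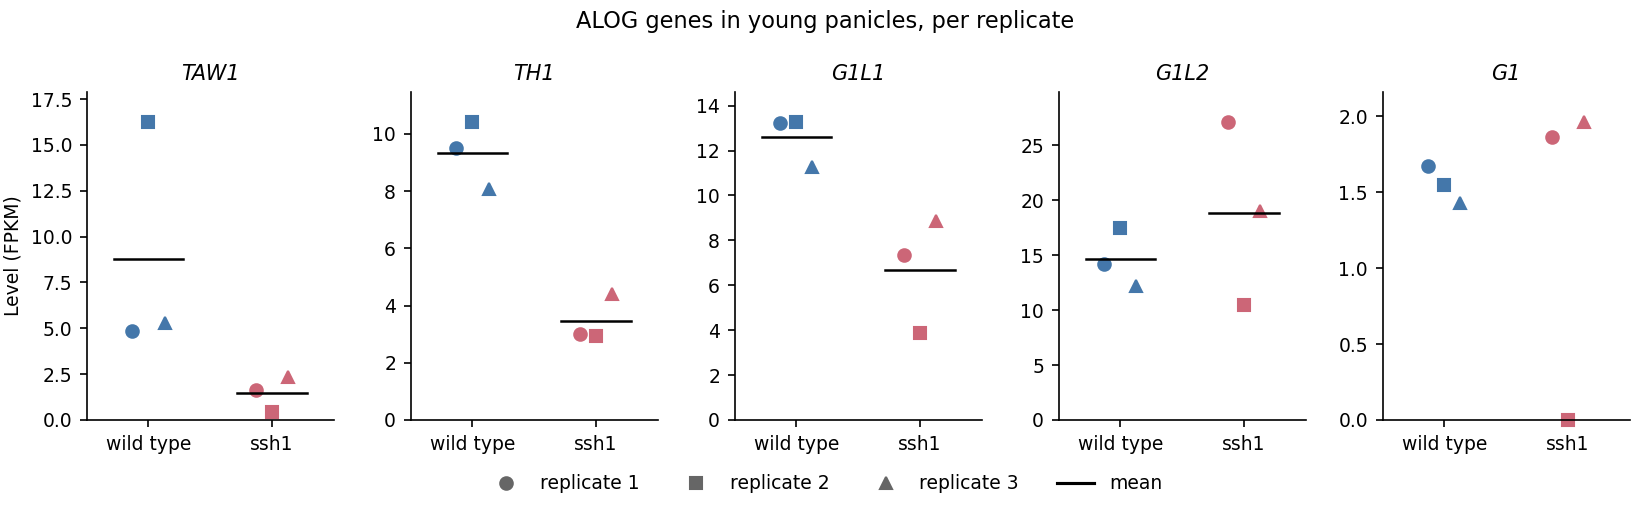
Level in FPKM (vertical axes, 1 scale per gene) of the 5 ALOG genes in each replicate of the wild type (blue) and *ssh1* (red), with symbols for replicates and a black line for the mean (no line for *G1*, which is listed at 0 in *ssh1* replicate 2). The genotypes do not overlap in *TAW1*, *TH1*, and *G1L1*, and they overlap in *G1L2* and *G1*.

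*TAW1*, the gene that holds panicle meristems in the branching phase, had 4.83, 16.3, and 5.30 FPKM in replicates 1, 2, and 3 of the wild type and 1.64, 0.419, and 2.33 FPKM in those of *ssh1*. Replicate 2 of the wild type was 3.21 times the mean of the other wild-type replicates, and every *ssh1* replicate was nonetheless below the lowest wild-type value. Means were 8.80 ± 6.47 FPKM in the wild type and 1.46 ± 0.970 FPKM in *ssh1* (SD, n = 3 each), a fall of 6.01-fold. On the log2 scale the difference was -1.89 with a standard error of 0.51 (limma, adjusted p = 0.0257), and 0.949% of the tested genes had a lower value. By a two-sided exact permutation test p was 0.1, the smallest that 3 replicates against 3 allow.

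The size of the *TAW1* change rested on replicate 2 of the wild type: without it the mean of the wild type was 5.07 FPKM, the fall 3.46-fold, and the log2 fold change -1.39 (adjusted p = 0.0477 from limma). The adjusted p in limma rose above 0.05 without *ssh1* replicate 1 (0.0543) or without *ssh1* replicate 2 (0.0548). Over the wild-type replicates *TAW1* was also among the least even genes, its SD on the log2 scale (0.87) being larger than that of 98.9% of the tested genes.

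*TH1*, which acts in the shape of the hull and the size of the grain, showed the fall with the smallest adjusted p of the 5. Its wild-type replicates had 9.49, 10.4, and 8.06 FPKM and its *ssh1* replicates 3.0, 2.92, and 4.42 FPKM. The lowest wild-type value was therefore well above the highest *ssh1* value. The mean went from 9.33 ± 1.19 to 3.45 ± 0.844 FPKM (SD, n = 3 each), a fall of 2.71-fold. This was -1.23 on the log2 scale with a standard error of 0.16 (limma, adjusted p = 0.00214), beyond the fold of the DEG thresholds and short of their p. With any 1 replicate left out, the log2 fold change of *TH1* stayed between -1.38 and -1.14 and its adjusted p in limma between 0.00159 and 0.0141.

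*G1L1*, the most abundant of the 3 genes that fell, had the smallest ratio between the group means. It had 13.2, 13.3, and 11.3 FPKM in the wild type and 7.33, 3.88, and 8.84 FPKM in *ssh1*. The wild-type replicates lay close together, and *ssh1* replicate 2 was 0.480 times the mean of the other *ssh1* replicates. Means were 12.6 ± 1.14 FPKM in the wild type and 6.69 ± 2.54 FPKM in *ssh1* (SD, n = 3 each), a fall of 1.88-fold, or -0.88 on the log2 scale with a standard error of 0.26 (limma, adjusted p = 0.0349). The call for *G1L1* was lost without any 1 of the wild-type replicates 1, 2, and 3 (adjusted p = 0.105, 0.102, and 0.0734 from limma) and without *ssh1* replicate 1 (0.0575), and also when genes of low level were not filtered out (0.0628), while the sign stayed negative in these fits. Without *ssh1* replicate 2 the fall was smaller, 1.56-fold, with an adjusted p of 0.0139 from limma.

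*G1L2* was the most abundant of the 5 genes in both genotypes. It had 14.2, 17.5, and 12.2 FPKM in the wild type and 27.1, 10.4, and 19.1 FPKM in *ssh1*. Replicates 1 and 3 of *ssh1* were above every wild-type replicate, and replicate 2 was below every one. The means of 14.6 ± 2.67 and 18.9 ± 8.36 FPKM (SD, n = 3 each) differed by less than the spread of the *ssh1* replicates, with a log2 fold change of 0.26 (95% interval -0.53 to 1.06, adjusted p = 0.537 from limma). With *ssh1* replicate 2 left out the estimate was 0.62 (limma, adjusted p = 0.0554), and with *ssh1* replicate 1 left out it was -0.033 (adjusted p = 0.932), so that a change in either direction could not be told at this replication.

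*G1*, the sterile lemma gene, had the lowest level of the 5. Its wild-type replicates had 1.67, 1.55, and 1.43 FPKM, and *ssh1* replicates 1 and 3 had 1.86 and 1.96 FPKM, above all of them. In *ssh1* replicate 2 *G1* is listed at 0. An exact 0 in a table without counts can also be a failed estimate, and in that library 11 genes with at least 5 FPKM everywhere else, 1 of them with at least 20 FPKM, are likewise listed at 0. Whether *G1* RNA was absent from this library or its estimate failed was not tested. With all replicates the limma estimate on the log2 scale was -0.32 (95% interval -1.36 to 0.72, adjusted p = 0.567), and without *ssh1* replicate 2 it was 0.19 (limma, adjusted p = 0.289). The direction of *G1* thus turned on 1 value, and with a pseudocount of 0.1 FPKM in place of 1 FPKM the estimate was -1.15 (limma, adjusted p = 0.452).

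**Figure D2:**
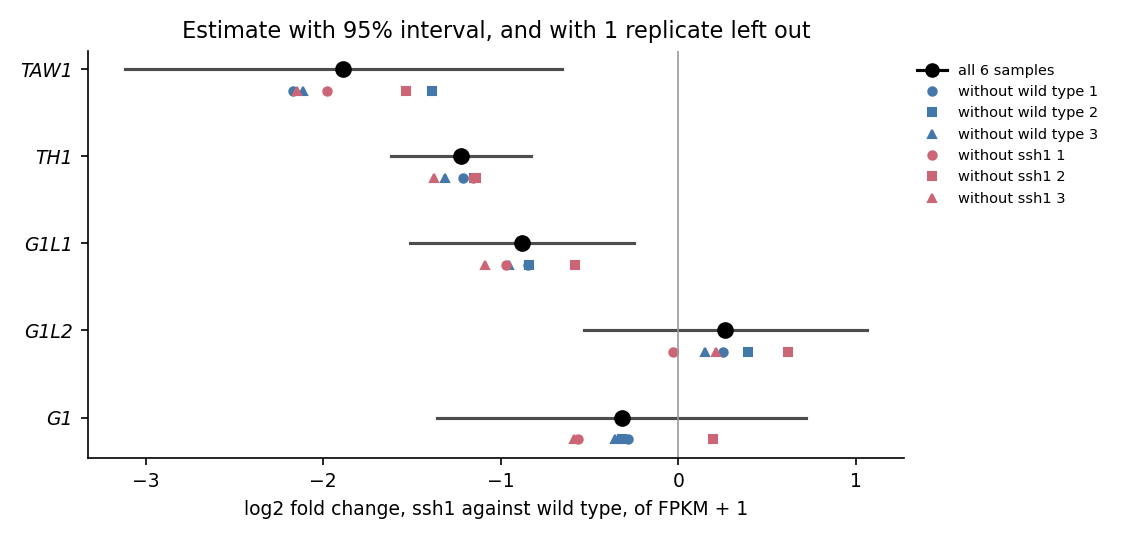
Difference between *ssh1* and wild type in log2(FPKM + 1) as estimated by limma (horizontal axis) for each gene, as a black point with its 95% interval, and below it the 6 estimates with 1 replicate left out (blue, a wild-type replicate; red, an *ssh1* replicate). The intervals of *TAW1*, *TH1*, and *G1L1* lie below 0, and those of *G1L2* and *G1* span 0, with *G1* moving to 0.19 without *ssh1* replicate 2.

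The replicates of *ssh1* differed more than those of the wild type in 4 of the 5 genes on the log2 scale, *TAW1* being the exception (SD 0.64 in *ssh1*). How many of all tested genes differed more among the *ssh1* replicates was not calculated, so this is not shown to be particular to the 5 genes. Replicate 2 was the lowest *ssh1* replicate for all 5 genes, as it was for 44.9% of the tested genes, and this library also had the lowest FPKM sum of the 6, 832551. After median-of-ratios scaling it was the lowest for 4 of the 5, *TH1* being then lowest in *ssh1* replicate 1 (3.10 against 3.18 scaled FPKM). In the wild type, replicate 2 was the highest for 4 of the 5 genes, all but *G1*. The share of all tested genes that were highest there was not calculated.

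**Figure D3:**
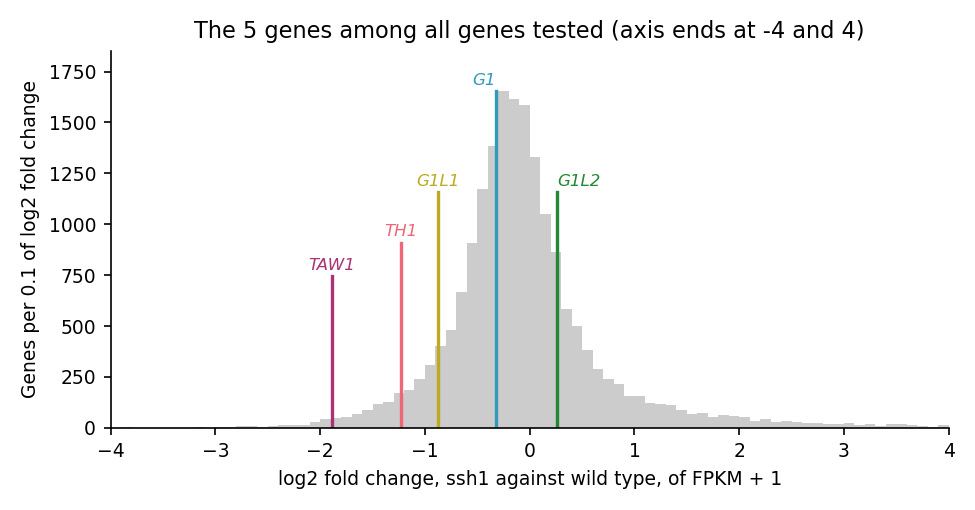
Number of tested genes (vertical axis) per 0.1 of difference between *ssh1* and wild type in log2(FPKM + 1) (horizontal axis, from -4 to 4), with the 5 ALOG genes as coloured lines whose heights carry no value. *TAW1* at -1.89 lies in the lower tail, *TH1* at -1.23 and *G1L1* at -0.88 lie on the lower flank, and *G1* at -0.32 and *G1L2* at 0.26 lie within the bulk of the genes.

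The order of the levels was the same in both genotypes by the means, *G1L2*, *G1L1*, *TH1*, *TAW1*, and *G1*, although the steps between them differed. In the wild type, *G1L2* (14.6 FPKM) and *G1L1* (12.6 FPKM) overlapped in their ranges, as did *TH1* (9.33 FPKM) and *TAW1* (8.80 FPKM), whereas *G1L1* lay above *TH1* and *TAW1* above *G1* in all 3 replicates without overlap. In *ssh1*, *G1L2* (18.9 FPKM) was clear of *G1L1* (6.69 FPKM) and *TH1* (3.45 FPKM) was clear of *TAW1* (1.46 FPKM). *G1L1* and *TH1* overlapped there in their ranges, and so did *TAW1* and *G1*. Compared within each library, *G1L2* was above *G1L1* in all 3 wild-type replicates, and *G1L1* above *TH1* in all 3 *ssh1* replicates. *TH1* was above *TAW1* in 2 of the 3 wild-type replicates, and *TAW1* above *G1* in 2 of the 3 *ssh1* replicates. The summed level of the 5 genes was 46.9 ± 10.8 FPKM in the wild type and 31.7 ± 12.4 FPKM in *ssh1* (SD, n = 3 each), and the genotypes overlapped.

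In the make-up of that sum, the genotypes did not overlap for 3 genes. Shares of 1 sum depend on each other, so these are not 3 separate differences. *G1L2* made up 32.7%, 29.7%, and 31.9% of the summed FPKM in wild-type replicates 1, 2, and 3 and 66.2%, 59.1%, and 52.0% in those of *ssh1*. Its share was thus higher in each *ssh1* replicate than in any wild-type replicate, with *ssh1* replicate 2 between the other two. *TAW1* went from 17.5 ± 8.81% to 4.25 ± 2.01% and *TH1* from 20.2 ± 2.22% to 12.0 ± 4.61% (SD, n = 3 each), both without overlap. For *TH1* the gap was narrow, 17.7% in wild-type replicate 2 against 16.5% in *ssh1* replicate 2. The share of *G1L1*, 27.5 ± 4.33% and 21.3 ± 3.18% (SD, n = 3 each), overlapped, as did that of *G1*.

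**Figure D4:**
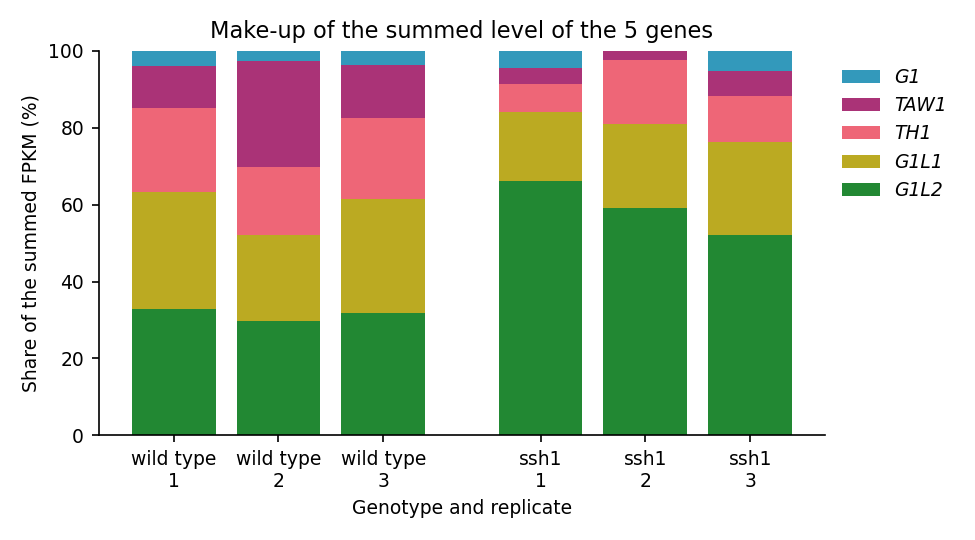
Share of each gene in the summed FPKM of the 5 ALOG genes (vertical axis, percent) in each replicate of the wild type and *ssh1*. *G1L2* holds 29.7% to 32.7% of the sum in the wild type and 52.0% to 66.2% in *ssh1*.

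The genes were also compared with each other within each library, in 10 pairs, as the log2 ratio of FPKM + 1. The largest difference was that of *TAW1* over *G1L2*, with -1.39, -0.10, and -1.07 in the wild type and -3.41, -3.01, and -2.59 in *ssh1*, a difference of -2.15. *TH1* over *G1L2* had -0.54, -0.70, and -0.54 in the wild type and -2.81, -1.54, and -1.89 in *ssh1*, a difference of -1.49, and *G1L1* over *G1L2* went from a mean of -0.19 ± 0.16 to -1.34 ± 0.38 (SD, n = 3 each). The genotypes did not overlap in these 3 ratios, so that *ssh1* held less *TAW1*, *TH1*, and *G1L1* relative to *G1L2* in each replicate. They did not overlap either in *TAW1* over *G1L1* (difference -1.01), in *G1* over *TAW1* (1.57), and in *G1* over *G1L1* (0.56, which turned to -0.17 with a pseudocount of 0.1 FPKM). Each of these 6 ratios had the smallest p that the two-sided exact permutation test allows (p = 0.1, adjusted over the 10 pairs 0.167), and the other 4 ratios overlapped. *TAW1* over *TH1* (difference -0.66, exact permutation p = 0.4) and *TH1* over *G1L1* (-0.35, p = 0.4) were among the latter, so the fall of *TH1* was not told apart in size from that of *TAW1* or of *G1L1*. The pairs share genes, so the 10 ratios depend on each other. Of single tested genes, 59.7% did not overlap in either direction, and the share over other pairs of genes was not calculated. Without wild-type replicate 2, the differences were -0.54 for *TAW1* over *G1L1* and -0.24 for *TAW1* over *TH1*. Leaving out *ssh1* replicate 2 gave -0.39 for *TAW1* over *TH1* and -0.56 for *TH1* over *G1L1*, and leaving out *ssh1* replicate 1 gave -0.19 for the latter.

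*TAW1* is known in rice to act through MADS-box genes of the SVP type, *OsMADS22*, *OsMADS47*, and *OsMADS55*, which rise when *TAW1* activity is raised. Of the 3 loci listed for them, 1 rose, 0 fell, and 2 did not pass the test, where 17% of all tested genes rose and 28% fell. Medians of the log2 fold change were 0.31 over the 3 and -0.14 over all tested genes. The one that rose was LOC_Os02g52340, which had 13.1, 33.5, and 14.6 FPKM in the wild type and 94.7, 105, and 81.7 FPKM in *ssh1*. Each *ssh1* replicate was thus above each wild-type replicate, opposite in direction to *TAW1*, by 2.26 on the log2 scale with a standard error of 0.34 (limma, adjusted p = 0.00332). LOC_Os06g11330 had 10.4, 34.8, and 9.23 FPKM in the wild type and 14.7, 17.0, and 27.4 FPKM in *ssh1* (adjusted p = 0.641 from limma).

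Among the wild-type replicates, replicate 2 was the highest for all 3 SVP-type loci as well as for *TAW1*. In that library 1.34% of the tested genes were at least 2 times the higher of the other wild-type replicates, and *TAW1* and the 3 loci were all among them. LOC_Os03g08754 had the lowest level of the 3 loci, with 0.518, 2.64, and 0.524 FPKM in the wild type and 2.56, 1.25, and 0.719 FPKM in *ssh1*. No such concordance held in *ssh1*, where replicate 2 was the lowest for *TAW1* and for 0 of the 3 loci.

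**Figure D5:**
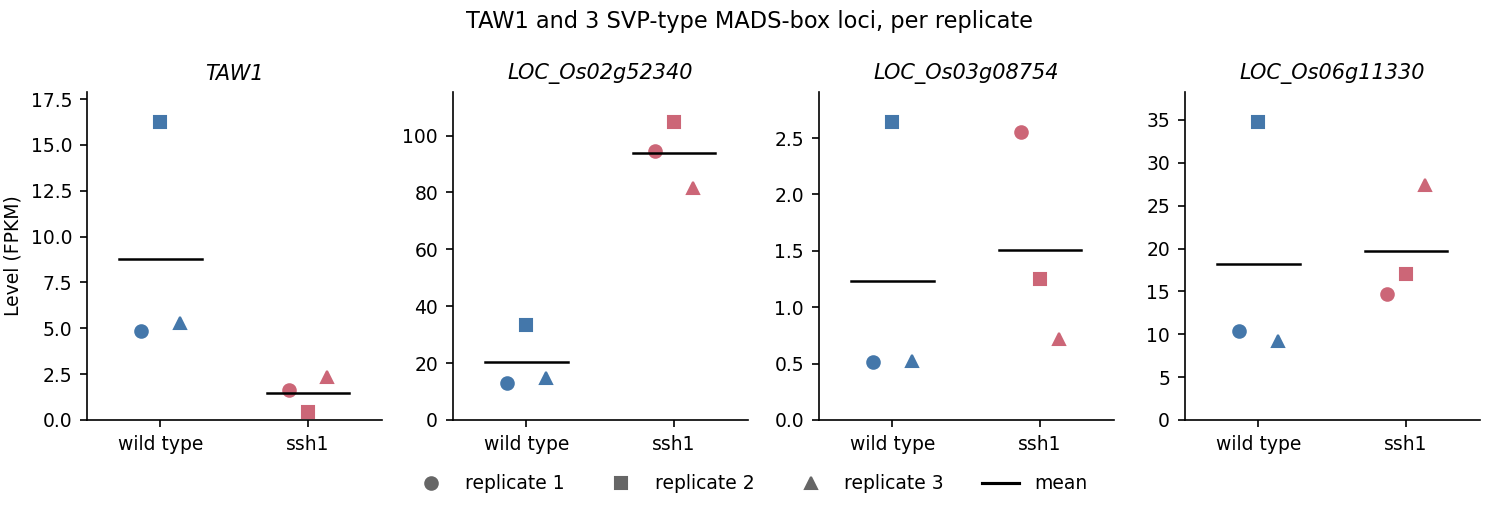
Level in FPKM (vertical axes, 1 scale per panel) of *TAW1* and the 3 SVP-type MADS-box loci in each replicate of the wild type (blue) and *ssh1* (red), with a black line for the mean. Replicate 2 (squares) is the highest wild-type replicate in all 4 panels, and LOC_Os02g52340 is above 81 FPKM in every *ssh1* replicate.

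*G1* acts at the base of the spikelet beside other regulators of bract and spikelet identity, among them *SNB*. Of 9 loci on a list of such regulators, 7 were tested, of which 4 fell, 1 rose, and 2 did not pass the test, with a median log2 fold change of -0.47. Over all tested genes 28% fell and 17% rose, with a median of -0.14. *SNB*, the mutated gene itself, was 1 of the 4 and the only one past the DEG thresholds, and it is no independent member of the count. LOC_Os08g06480 fell from 158 ± 5.11 to 86.8 ± 14.5 FPKM and LOC_Os03g54170 rose from 62.2 ± 0.726 to 81.9 ± 8.30 FPKM (SD, n = 3 each), with adjusted p-values of 0.0025 and 0.0121 from limma. LOC_Os05g41760 did not pass the test but was higher in *ssh1* without overlap, with 9.62 ± 2.51 FPKM in the wild type and 24.0 ± 10.8 FPKM in *ssh1* (SD, n = 3 each). Its log2 difference was 1.15 (adjusted p = 0.0511 from limma). The 2 loci left out of the test were below a mean of 1 FPKM.

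The panicles were collected over a range of lengths, and the FPKM of a whole panicle does not separate fewer cells of a kind from less RNA per cell. Lists for other stages and tissues were therefore set beside the ALOG genes. Of 7 loci for branching-stage meristems, 3 were tested, of which 1 fell and 0 rose, against 28% and 17% of all tested genes. The summed level of the list was 233 to 307 FPKM in the wild type and 196 to 242 FPKM in *ssh1*. The one that fell, LOC_Os03g51690, had 175 ± 6.34 FPKM in the wild type and 101 ± 7.90 FPKM in *ssh1* (SD, n = 3 each, adjusted p = 0.00074 from limma). Another, LOC_Os08g39890, had 64.1, 89.8, and 47.1 FPKM in the wild type and 131.8, 92.3, and 94.4 FPKM in *ssh1*, higher without overlap. It did not pass the test (log2 difference 0.68, adjusted p = 0.0699 from limma), and only this locus of the 7 had a higher mean in *ssh1*. The remaining tested locus, LOC_Os04g51000, had a mean in *ssh1* of 0.465 times that in the wild type, with overlap (log2 difference -1.25, adjusted p = 0.143 from limma). The 4 untested loci had means in *ssh1* of 0.323 to 0.648 times those in the wild type. Of these, only LOC_Os01g61480 (0.323) did not overlap. Within the genotypes, replicate 2 of the wild type was the highest for 7 of the 7 loci, and replicate 2 of *ssh1* the lowest for 6 of 7. Over all tested genes, the latter held for 44.9%, and the share for the former was not calculated. These counts include the 4 loci below a mean of 1 FPKM, where single values are least certain. Of 7 loci for anthers, 3 were tested and 0 passed, against 45% of all tested genes. Their sums were 41.6 to 58.9 and 33.6 to 43.4 FPKM in the wild type and *ssh1*, with 1 locus listed at 0 in all 6 libraries. Of 7 loci for green leaf tissue, all were tested, 4 rose, and 0 fell, against 17% and 28% of all tested genes, with sums of 264 to 392 and 334 to 643 FPKM and no locus at 0 throughout. The part of panicle stage and of other tissue in the falls of *TAW1*, *TH1*, and *G1L1* was not tested.

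For each ALOG gene, the gene with the most similar profile was sought by Pearson's correlation of log2(FPKM + 1) over the 6 libraries among genes averaging 5 FPKM or more. These correlations are a description over few libraries of 2 genotypes, and many genes reach a high value. The closest to *TH1* was LOC_Os11g11240 (r = 0.9996, 10.3 FPKM in the wild type and 7.68 FPKM in *ssh1* on average), and 1640 genes were above 0.95. The closest to *G1L1* was LOC_Os03g22720 (r = 0.999, 136 and 72.4 FPKM), with 677 genes above 0.95. For *G1L2* it was LOC_Os02g45180 (r = 0.998, 50.9 and 52.9 FPKM), and 32 genes were above 0.95, the fewest of the 5. None of these 3 loci carries a gene name in the sources used here.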

How the data were processed

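Total RNA from young panicles was made into paired-end libraries and sequenced on an Illumina instrument. The authors mapped the reads with TopHat2 at default parameters to the Nipponbare reference (IRGSP-1.0, MSU7 annotation) and deposited 1 FPKM value per gene and replicate, calculated with Cuffdiff. Read filters, tool versions, and scaling between replicates are not given in the sources used here. FPKM values carry no read numbers, so no count test was run.

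In the deposited FPKM, 4 locus IDs had repeated entries and were dropped, leaving 55982. Genes averaging 1 FPKM or more (18537) were tested as log2(FPKM + 1) for genotype alone, using limma 3.58.1 in R 4.3.3 with a mean-variance trend in eBayes, and p-values were adjusted by Benjamini-Hochberg over these genes. Fold changes on this scale are understated for low genes. Fold changes given as ratios are those of group mean FPKM. The calculation was tested on simulated data. Ratios of genes were compared by two-sided exact permutation tests in scipy 1.17.1, and plots were drawn with matplotlib 3.10.9.

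The 5 genes, the gene lists, and the rule for the genes named (the 5 genes, *SNB*, called loci of the lists, and the closest profiles) were chosen with earlier results of these data known. The locus IDs of the lists come from general knowledge of rice genes, and 0 of the 5 ALOG locus IDs were found in the reference gene table, so gene positions, lengths, and sequences are not given. For the lists, the text departs from that rule. The list loci named were picked after their values were seen, some of them were not called, and some called loci are not named. Alternatives were another pseudocount, other filters, 3 other scalings, robust estimation, sample weights, leaving out each replicate in turn, and a block for replicate number. The replicate numbers of the labels are not stated to pair samples.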

Additional observations from a re-analysis of the deposited data

How the results depend on the processing

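*TH1* kept its call under every setting tried, with log2 fold changes of -1.43 to -1.11 over 9 settings. *TAW1* kept it in 8 of 9 settings and in 4 of the 6 fits without 1 replicate (-2.17 to -1.39), and lost it with the replicate number as a block (-1.89, adjusted p = 0.0769 from limma). *G1L1* kept it in 7 of 9 settings and in 2 of 6 fits without 1 replicate (-1.09 to -0.58), and lost it without the filter on low values (-0.88, adjusted p = 0.0628 from limma) and with the block (-0.88, 0.067). *G1* ranged from -0.59 to 0.19 and *G1L2* from -0.033 to 0.62 with 1 replicate left out, and neither passed the test in any fit (*G1* could not be tested at a minimum mean of 5 FPKM). The number of the 5 genes at an adjusted p below 0.05 in limma was 3, against 1 with the block and 1 to 3 with 1 replicate left out (1 without *ssh1* replicate 1), and 0 passed the DEG thresholds in every fit. Over all tested genes, 947 passed those thresholds, against 487 without the filter on low values, 0 with the block, and 68 to 750 with 1 replicate left out, while 8341 had an adjusted p below 0.05 in limma, against 5561 to 8249 with 1 replicate left out. The numbers do not pair the replicates by their deviations from the group means, since same-numbered samples correlated at -0.17 to -0.07 across genes and no sample correlated best with its own number. With a pseudocount of 0.1 FPKM, the ratio of *G1* over *G1L1* went from 0.56 to -0.17 and that of *G1* over *G1L2* from -0.59 to -1.43, while those of *G1* over *TH1*, *TAW1* over *G1L1*, and *TAW1* over *TH1* went from 0.90 to 0.27, -1.01 to -1.56, and -0.66 to -1.12. Without *ssh1* replicate 1 the ratio of *G1* over *TH1* was 0.59. In *ssh1* replicate 2, where *G1* is listed at 0, its log2 value is that of the pseudocount alone, so ratios with *G1* move with the pseudocount there. Other causes of these shifts were not tested. Without read numbers, the error of low values such as those of *G1* is unknown.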

Other observations

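The gene with the profile closest to that of *G1* was LOC_Os08g10612 (r = 0.997 over 6 libraries), chosen after its values were seen. It had 9.74, 8.28, and 6.54 FPKM in the wild type and 9.62, 0.0995, and 10.4 FPKM in *ssh1* replicates 1, 2, and 3. The profile of *G1* is set mainly by its 0 in *ssh1* replicate 2, so a gene chosen for likeness to it is low there. This low value therefore follows from the choice and tells nothing further about the 0 of *G1*. In all, 161 genes were above a correlation of 0.95 with *G1*. In all, 77 of the 18537 tested genes, or 0.415%, are listed at 0 in *ssh1* replicate 2 and above 0 in the other 5 libraries.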
